A study of Mus musculus with 107 samples.

Results

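The genes described here are the ligands and receptors of the classical axon guidance families: the semaphorins with their plexin and neuropilin receptors, the ephrins with the Eph receptors, the Slits with the Robo receptors, and the netrins and netrin-Gs with Dcc and the Unc5 receptors. They were taken by gene symbol alone, without use of any measured value, and 70 of the 18193 genes with a probe set of 1 symbol on the array belonged to them. For each gene, the probe set with the highest mean over all arrays stood for it, and 47 of the 70 genes had several probe sets to choose from. Of the 70 genes, 59 reached a mean log2 intensity of 6 (an intensity of 64) in 1 or more of the 24 cell populations, and the results below are about these 59.

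Axon guidance molecules were found as cues that attract or repel growing axons. Semaphorins signal through plexins, and the secreted class 3 semaphorins mostly need a neuropilin as co-receptor; ephrins and Eph receptors are both bound to membranes and signal at cell contacts; Slits repel axons through Robo receptors, and netrins attract through Dcc and repel through Unc5 receptors. In the adult brain and cord many of these genes stay active, and they are known for roles at synapses, in dendritic spines, in glial cells and in myelin, where ephrin-B3 is known as an inhibitor of axon growth.

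The study profiled defined cell types of the mouse central nervous system by translating ribosome affinity purification (TRAP): a transgene on a bacterial artificial chromosome puts a tagged ribosomal protein under the control of a driver gene, the tagged ribosomes are pulled down from a dissected tissue, and the RNA on them is amplified and hybridised to an array. It holds 76 TRAP arrays of 24 populations and 31 arrays of unbound RNA, the RNA left in the tissue lysate after the pull-down, from 6 tissues. Each population had 3 arrays, except the cortical astrocytes with 4 and the Purkinje neurons with 6, and of the unbound arrays 9 were of cortical tissue, 7 of cerebellar and 6 of striatal tissue, with 3 for every other region (basal forebrain, brainstem, spinal cord). The study's text calls the replicates of a population independent; the age, sex and strain of the mice and the number of animals per array were not given in the sources used here.

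The driver gene decides which cells carry the tag, so a population is what its transgene labels in the dissected tissue. In the cortex these were layer 5a neurons (line TS88), layer 5b neurons (glt25d2, line DU9), layer 6 neurons (ntsr1, line TS16), and Cck+, Cort+ and Pnoc+ neurons (cck, line GM391; cort, line GM130; pnoc, line GM64). In the striatum they were Drd1 and Drd2 medium spiny neurons (lines CP73 and CP101) and cholinergic neurons. A single chat line, DW167, marked the cholinergic neurons of striatum, basal forebrain and spinal cord and the motor neurons of the brainstem. In the cerebellum they were Purkinje neurons (pcp2, lines DR166 and DR168), granule neurons (neurod1, line JP241), Golgi neurons (grm2, line JP77), unipolar brush neurons (grp, line JP25), and stellate and basket neurons (lypd6, line JP48). The glial populations were astrocytes of cortex and cerebellum (aldh1l1, line JD130, with line JD133 also in cortex), Bergmann glia (septin4, line DS152), mature oligodendrocytes of both regions (cmtm5, line JD307), and mixed oligodendroglia of both regions (olig2, line JD97), a line that holds progenitors beside mature cells. With the exceptions of Purkinje neurons and cortical astrocytes, a population came from 1 line, so that line and population cannot be told apart.

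Lists of marker genes set against the labels showed the labelled cell type in each population that had a list: all 11 astrocyte markers reached 6 in the astrocytes and Bergmann glia, all 10 myelin markers in the 4 oligodendroglial populations, all 7 progenitor markers in the mixed oligodendroglia, and all 8 interneuron markers in Cort+ and Pnoc+ neurons. Golgi, unipolar brush, stellate and basket neurons and Bergmann glia had no list of their own. RNA of other cell types was also present: 11 of 12 microglial markers reached 6 in layer 5a neurons, 6 in layer 5b and 4 in layer 6, against 0 in Purkinje, Golgi, granule and unipolar brush neurons and Bergmann glia. All 10 myelin markers reached 6 in layer 5a neurons, Cort+ neurons, medium spiny neurons, brainstem motor neurons, stellate and basket neurons and Bergmann glia, while the blood vessel list had 7 of 10 in layer 5b neurons and 0 to 2 in every other TRAP population. The part of these cells in the results below was not tested, and in such bulk RNA fewer cells of a type and less RNA per cell cannot be told apart. Values are log2 intensities that the authors normalised within groups and that were shifted here so that the array's spiked control probe sets were equal in every group; the number of arrays limits their precision. Because replicates were normalised together, identical values occur (24.7 to 47.8% of probe sets above the array minimum in groups of 3), which makes some SDs 0. The shift fixes the order among populations, and quantile normalisation in its place is named where it ends the call of a gene whose values are given or moves the balance of higher and lower calls. A difference that involves a mean under 6 is the difference of the fitted means and sets no fold.

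Sema3f, a secreted ligand of neuropilin-2, and Sema6c, a membrane-bound semaphorin, stood apart. Their pooled SD between arrays of a group was 1.13 and 1.07, against a median of 0.33 over the 59 genes. In unbound striatum RNA, where the tissue is the same, Sema3f measured 12.58 and 12.83 in the arrays from the Drd1 line and 7.60 to 8.45 in the 4 arrays from the other lines. Sema6c gave 10.67 and 8.49 in the Drd1-line arrays and 4.37 to 4.73 in the others. Their levels thus differed between lines within 1 tissue, and counts of calls that include them are also given without them; the part of the line in their values was not tested. For both genes only the probe set used here reached 6 in a TRAP population. The highest population mean of any other probe set was 4.66 for Sema3f and 3.94 for Sema6c.

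**Figure D1:**
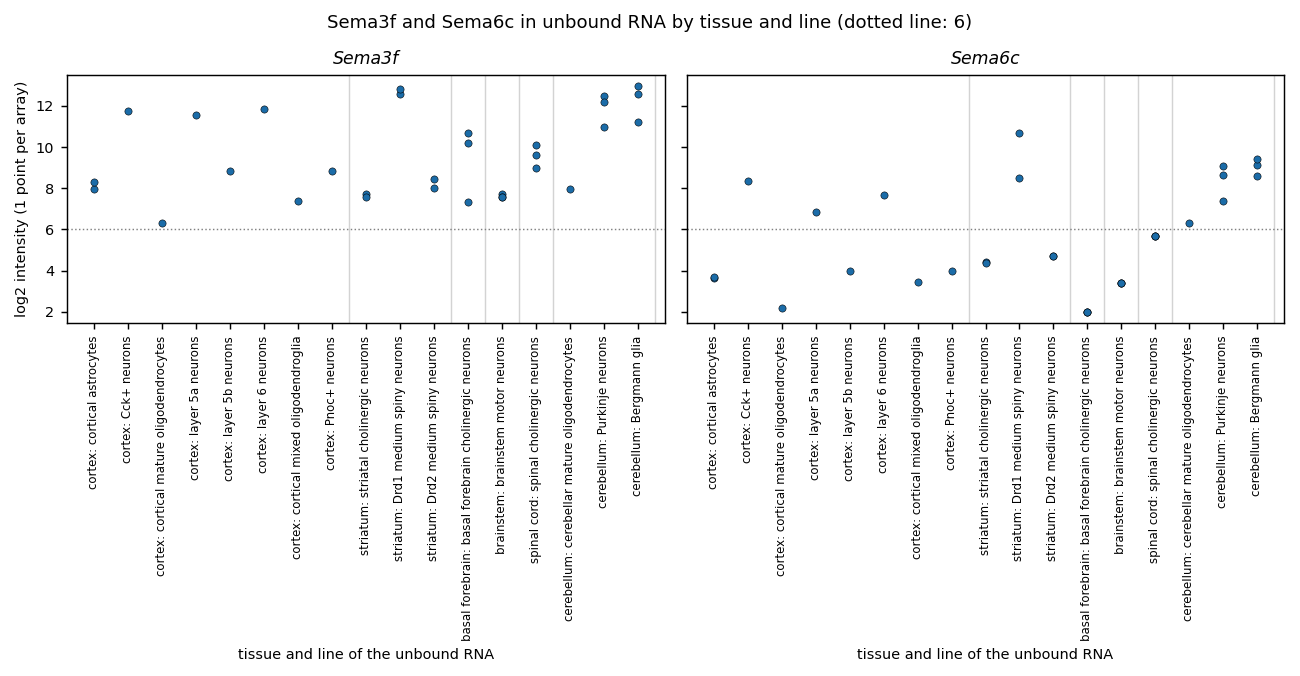
Log2 intensity of Sema3f and Sema6c in each array of unbound RNA, by tissue and by the mouse line that the tissue came from, with 1 point per array. In striatum the arrays of the Drd1 line sit at 12.58 and 12.83 for Sema3f, above 7.60 to 8.45 in the other lines.

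Nearly all of the guidance genes stayed under 6 in 1 or more populations. Plxnc1, the receptor of Sema7a, was alone in reaching 6 in all 24 populations (1.69% of the 59, against 39.8% of the 12400 genes on the array that reached 6 somewhere), and 9 of the 59 reached it in 5 populations or fewer, as did 2122 of the 12400. The span between the highest and the lowest population, with means under 6 set to 6, had a median of 3.40 over the 59 genes and 3.35 over all genes that reached 6. The deep-layer cortical neurons held the most: 53 of the 59 genes reached 6 in layer 5a neurons (89.8%, against 83.9% of all genes reaching 6 somewhere) and in layer 6 neurons (89.8%, against 76.9%), and 52 in layer 5b neurons (88.1%, against 78.6%). The other end was Purkinje neurons, with 15 of 59 (25.4%, against 62.8%), followed by cerebellar astrocytes with 19 (32.2%, against 68.7%). Between them lay Cort+ neurons with 46, Drd1 medium spiny neurons with 38, brainstem motor neurons with 34, and both cortical oligodendroglial populations with 32. The population in which a gene was highest was a deep-layer cortical one for 26 of the 59 genes, a glial one for 14, a cerebellar neuron for 11, a medium spiny neuron for 4, Cck+, Cort+ or Pnoc+ neurons for 3 and a cholinergic one for 1. With quantile normalisation these numbers became 13, 13, 14, 2, 11 and 6, and 33 of 59 genes kept their highest population. The same numbers over all genes are not given, so they do not show a trait of guidance genes. With control scaling 60.7% of all genes were called higher in layer 5a neurons than in unbound RNA.

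**Figure D2:**
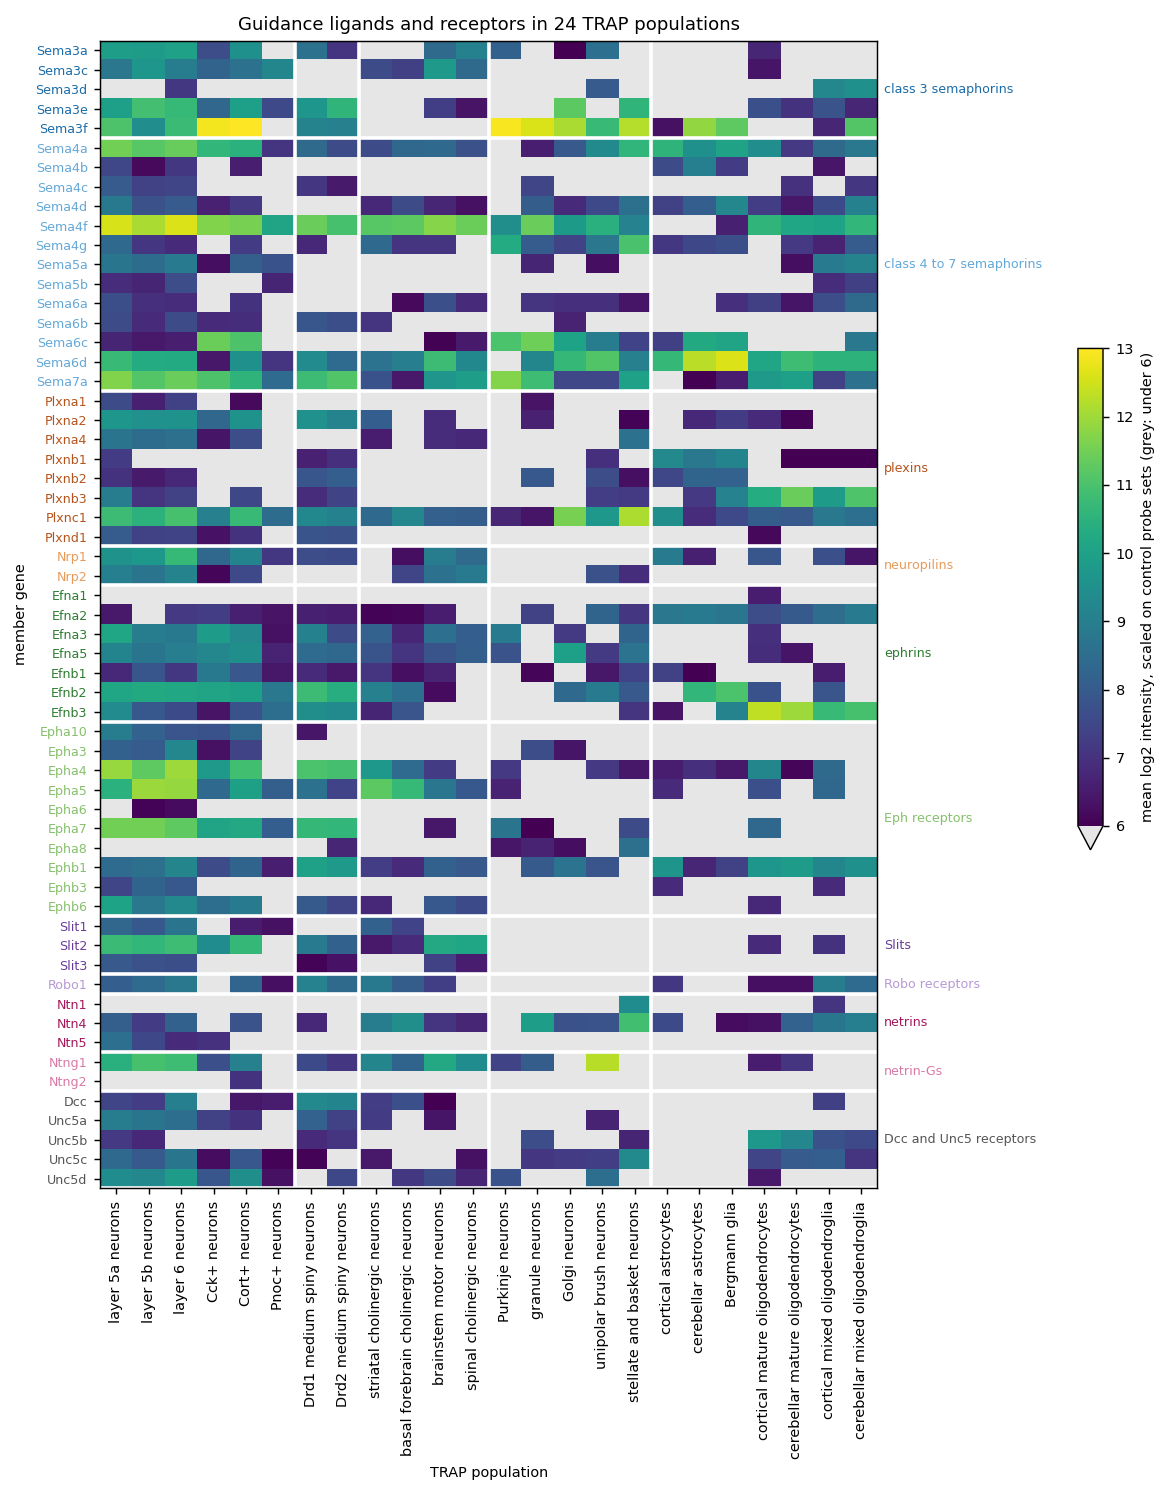
Mean log2 intensity of the 59 guidance genes (rows, by family) in the 24 TRAP populations (columns), with means under 6 in grey. The columns of layer 5a, 5b and 6 neurons are filled in 52 or 53 of 59 rows, and that of Purkinje neurons in 15.

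Of the 11 genes that stayed under 6 in all 24 populations, 3 were Robo receptors (Robo2, Robo3 and Robo4), 4 Eph receptors or ephrins of A and B type (Epha1, Epha2, Ephb4 and Efna4), 2 secreted semaphorins (Sema3b and Sema3g), and the last were the plexin Plxna3 and the netrin Ntn3. By family, all 13 semaphorins of classes 4 to 7, both neuropilins, all 3 Slits, both netrin-Gs and all 5 of Dcc and the Unc5 receptors reached 6 somewhere, as did 8 of 9 plexins, 7 of 8 ephrins, 10 of 13 Eph receptors, 5 of 7 class 3 semaphorins and 3 of 4 netrins. For the Robo receptors it was 1 of 4, Robo1. The floor of the arrays lay between 1.56 and 3.54 after scaling, and a mean under 6 does not show that a gene is absent.

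Among the membrane-bound ligands, Sema4f had a wide span. It measured 12.18, 12.87 and 12.87 in layer 6 neurons and 12.85, 12.21 and 12.68 in layer 5a neurons, and was lowest in cerebellar astrocytes with a mean of 5.58. The arrays of both cortical populations overlapped at the top. Sema6d was highest in astroglia of the cerebellum, with 12.75, 12.58 and 12.58 in Bergmann glia and 11.95, 12.42 and 12.47 in cerebellar astrocytes, and lowest in Purkinje neurons (mean 3.91). Sema7a, a GPI-anchored semaphorin that also binds integrins, measured 11.29 to 11.89 over 6 Purkinje arrays, with a median of 11.76, and 11.64, 11.70 and 11.70 in layer 5a neurons. Its lowest mean was 5.61, in cortical astrocytes. The levels of Sema6d and Sema7a rest on the probe set used. The highest population mean of any other probe set was 4.23 for Sema6d and 3.54 for Sema7a. Sema4a led in layer 5a neurons (11.81, 11.07 and 11.66) and layer 6 neurons (11.03, 11.31 and 11.80), which overlapped.

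Of the receptors with wide spans, Plxnc1 was highest in stellate and basket neurons, at 12.11, 12.30 and 11.98. Golgi neurons followed with 11.43, 11.86 and 11.41, and the lowest mean was 6.39, in granule neurons. In Purkinje neurons its mean was 6.75. The 3 stellate and basket arrays lay above the 3 Golgi arrays, but with quantile normalisation Golgi neurons were highest. Epha4, which binds ephrins of both types, measured 11.88, 11.89 and 12.15 in layer 6 neurons and 12.16, 11.62 and 12.01 in layer 5a neurons, and 2.02 in granule neurons. Epha7 measured 11.52 in each array of layer 5b neurons and 11.85, 11.09 and 11.56 in layer 5a neurons. Epha5 was at 12.20, 12.14 and 11.47 in layer 5b neurons, 11.73, 11.98 and 11.97 in layer 6 neurons and 11.54, 11.03 and 11.15 in striatal cholinergic neurons. All 3 of these Eph receptors thus had their highest levels in deep-layer neurons, where the arrays of the leading populations overlapped.

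Other genes had their highest levels in a few populations only. Ntng1, a GPI-anchored netrin-G that binds a synaptic adhesion protein in place of Dcc, measured 12.29, 12.07 and 12.40 in unipolar brush neurons and 11.10, 11.23 and 10.57 in layer 5b neurons, with no overlap between them. Its relative Ntng2 reached 6 in Cort+ neurons alone, at 7.01 in each array. The secreted netrin Ntn1 reached 6 in stellate and basket neurons (9.87, 9.05 and 9.29) and in cortical mixed oligodendroglia (7.39, 6.92 and 6.93), which did not overlap. Epha6 reached 6 in layer 5b and layer 6 neurons, with means of 6.08 and 6.21. Sema3e, the ligand of Plxnd1, had its highest level in Golgi neurons (11.23, 11.29 and 11.17), followed among cerebellar neurons by stellate and basket neurons (10.60, 10.60 and 10.53), and lay between 2.32 and 3.95 in Purkinje, granule and unipolar brush neurons.

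Guidance genes separated the glial types from each other, and the genes that did so were mostly B-type plexins and ephrins, semaphorins and Unc5b. The upstream sequences of 4 genes that mark different glial types are shown because these genes separate the types in the arrays below: Plxnb3 and Unc5b (higher in mature oligodendrocytes than in astroglia), Plxnb1 (higher in astroglia) and Sema3d (higher in mixed than in mature oligodendroglia). Each is the 250 bases before the annotated start, on the gene's strand, 5′ to 3′, from RefSeq on the mouse build GRCm38.p6: Plxnb3 at chrX:73756853-73757102 (plus strand), Unc5b at chr10:60831582-60831831 (minus strand), Plxnb1 at chr9:109095186-109095435 (plus strand) and Sema3d at chr5:12382916-12383165 (plus strand). Capitals mark the letters ACAAAG, the core bound by Sox factors, and CANNTG, the E-box bound by helix-loop-helix factors such as the olig2 product, searched on both strands; no match of one overlapped a match of the other.
Plxnb3: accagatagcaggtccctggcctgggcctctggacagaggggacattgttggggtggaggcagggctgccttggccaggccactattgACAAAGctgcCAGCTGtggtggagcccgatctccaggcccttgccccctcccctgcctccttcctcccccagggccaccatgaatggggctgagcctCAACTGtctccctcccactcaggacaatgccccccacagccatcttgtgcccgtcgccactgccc
Unc5b: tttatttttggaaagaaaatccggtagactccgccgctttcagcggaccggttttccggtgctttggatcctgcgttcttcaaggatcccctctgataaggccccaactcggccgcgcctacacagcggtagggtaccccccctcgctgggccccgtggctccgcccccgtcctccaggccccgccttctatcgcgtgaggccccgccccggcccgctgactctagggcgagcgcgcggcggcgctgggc
Plxnb1: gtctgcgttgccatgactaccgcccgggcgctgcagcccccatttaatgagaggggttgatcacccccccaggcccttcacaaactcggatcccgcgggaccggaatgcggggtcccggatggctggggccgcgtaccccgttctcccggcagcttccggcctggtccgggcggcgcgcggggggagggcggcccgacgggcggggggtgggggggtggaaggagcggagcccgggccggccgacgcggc
Sema3d: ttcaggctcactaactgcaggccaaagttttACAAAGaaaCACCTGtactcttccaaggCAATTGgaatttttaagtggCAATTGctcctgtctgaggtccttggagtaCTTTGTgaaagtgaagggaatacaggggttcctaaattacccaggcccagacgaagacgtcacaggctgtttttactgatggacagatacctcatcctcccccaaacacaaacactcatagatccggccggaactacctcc

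The Sema3d window held 2 matches of ACAAAG and 3 of CANNTG, the Plxnb3 window 1 and 2, and the Unc5b and Plxnb1 windows 0 of either. Of 32851 windows of this length in the same table, 16.5% held ACAAAG and 66.2% held CANNTG. Of the 76 windows of the 60 guidance genes in the table, 7 held ACAAAG and 36 held CANNTG. A match is a run of letters and no measured binding, and no match says only that these letters are not in this window.

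Between astroglia (cortical and cerebellar astrocytes and Bergmann glia) and mature oligodendrocytes, 12 guidance genes were higher in astroglia and 9 higher in mature oligodendrocytes, of 26 tested. A gene was tested where a compared population reached 6 and had more in TRAP than in unbound RNA; it was called with an adjusted p under 0.05 (limma, over all genes tested), a change of 2-fold or more, and an excess over unbound RNA in at least 1 population of the higher side. Over all 7251 genes tested, 39.9% were called higher in astroglia and 13.9% lower. The median difference was 0.70 for the 26 guidance genes and also 0.70 for all genes, and the split was 11 higher and 13 lower with quantile normalisation, so counts of direction here follow the scaling. Without Sema3f and Sema6c, 19 genes were called.

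Plxnb3, a receptor known for its expression in oligodendrocytes, measured 11.63, 11.01 and 11.53 in cerebellar and 9.96, 10.46 and 10.61 in cortical mature oligodendrocytes, against 3.17, 2.68, 2.79 and 2.98 in cortical astrocytes, 7.45, 7.29 and 6.74 in cerebellar astrocytes and 9.22, 9.05 and 9.01 in Bergmann glia. The oligodendrocyte arrays lay above all astroglial ones, and the 3 astroglial populations were far apart. The difference of the means was −4.48 (SE 0.22, adjusted p = 1.5e-33, limma), at least 10.9-fold; a fold is given as a lower bound, with means under 6 set to 6, where a population of the lower side was under 6. Efnb3, ephrin-B3, reached 11.89, 12.55 and 12.59 in cortical and 12.01, 11.54 and 12.33 in cerebellar mature oligodendrocytes. In astroglia it was at 6.59, 6.45, 6.71 and 5.77 in cortical astrocytes, 5.91, 5.88 and 5.88 in cerebellar astrocytes and 9.14 in each Bergmann array, so that it too was separate from oligodendrocytes (−5.01, SE 0.17, adjusted p = 4.4e-45, limma). The netrin receptor Unc5b measured 9.85, 9.5 and 9.83 in cortical and 9.33, 8.91 and 9.46 in cerebellar mature oligodendrocytes and 2.88 to 5.31 over the 10 astroglial arrays. That was a difference of −5.44 (SE 0.17, adjusted p = 1.0e-46, limma), at least 11.2-fold. Sema7a (at least 12.7-fold) and Efna1, an A-type ephrin (at least 1.21-fold), were also higher in mature oligodendrocytes without overlap, as was Plxnd1, the Sema3e receptor, whose means of 2.59 and 5.82 both lay under 6.

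In the other direction, Plxnb1, the receptor of Sema4d, measured 9.90, 8.71, 9.86 and 8.68 in cortical astrocytes, 8.74, 8.79 and 8.90 in cerebellar astrocytes and 9.19, 9.06 and 9.25 in Bergmann glia, against 4.53 to 6.01 over the 6 arrays of mature oligodendrocytes. All astroglial arrays lay above all oligodendrocyte arrays, by 3.74 in the mean (SE 0.15, adjusted p = 2.2e-39, limma) and at least 8.46-fold. Sema4b, a membrane-bound semaphorin, also separated without overlap: it was at 6.25 to 9.01 in astroglia and 3.41 to 6.00 in mature oligodendrocytes (3.20, SE 0.19). Of the 3 B-type plexins, Plxnb1 and Plxnb2 (at least 3.95-fold, with overlap) were thus higher in astroglia and Plxnb3 in mature oligodendrocytes. Sema4d differed by 1.36 on its own probe set, but 1 of its other probe sets differed by 2-fold or more in the opposite direction, and the mean of its probe sets by −1.04.

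**Figure D3:**
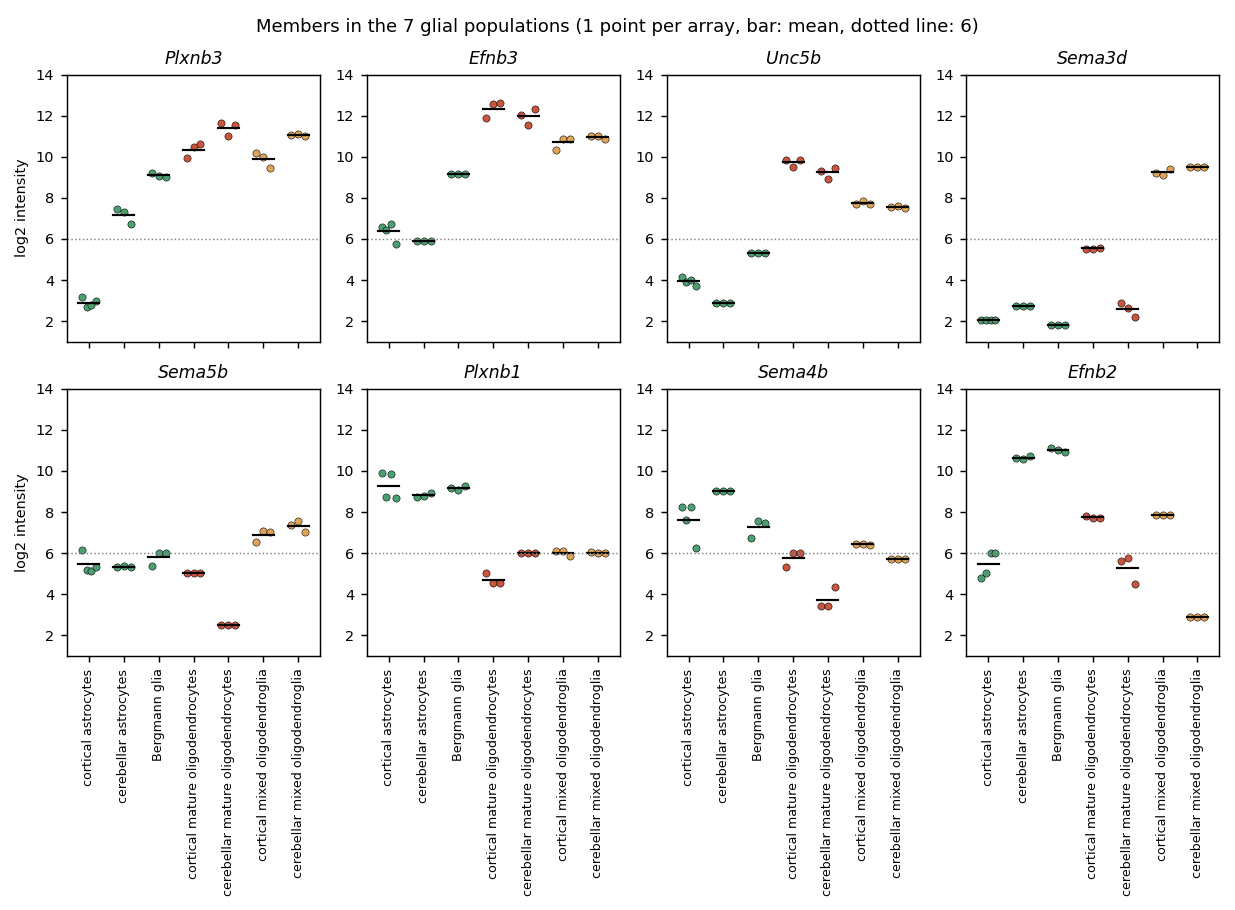
Log2 intensity of 8 guidance genes in each array of the 7 glial populations, with 1 point per array, a bar at the mean and a dotted line at 6. Plxnb3, Efnb3 and Unc5b are highest in mature oligodendrocytes, Plxnb1 and Sema4b in astroglia, and Sema3d and Sema5b in mixed oligodendroglia.

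Mixed oligodendroglia differed from mature oligodendrocytes in 17 of 26 guidance genes tested, 12 higher and 5 lower, beside 36.2% of all genes called higher and 6.94% lower; with quantile normalisation the counts were 13 and 8, and 16 were called without Sema3f and Sema6c. The secreted semaphorin Sema3d measured 9.51 in each array of cerebellar and 9.20, 9.13 and 9.41 in cortical mixed oligodendroglia, and 2.86, 2.65 and 2.22 in cerebellar and 5.52, 5.52 and 5.57 in cortical mature oligodendrocytes. No mature array came near the mixed ones, and the difference was 5.32 (SE 0.19, adjusted p = 4.9e-42, limma), at least 10.4-fold. Both class 5 semaphorins went the same way, Sema5b by 3.35 (at least 2.15-fold) and Sema5a by 3.09 (at least 7.48-fold), each without overlap. Among receptors, the Slit receptor Robo1 was 5.34-fold higher in mixed oligodendroglia (8.70 against 6.28, SE 0.19) and the netrin receptor Dcc at least 1.39-fold (6.48 against 3.53, SE 0.25). Higher in mature oligodendrocytes without overlap were Plxnd1 (no fold), Efna1 (at least 1.21-fold), Sema7a (−1.85, 3.62-fold), Unc5b (−1.84, 3.57-fold) and Efnb3 (−1.32, 2.50-fold), while Plxnb3 did not pass the test (10.46 against 10.87, adjusted p = 0.12, limma). Progenitor markers moved with these genes: their summed level was 15.89 to 16.35 over the mixed and 14.73 to 15.26 over the mature arrays, and their part in the result was not tested.

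The difference between mixed and mature oligodendroglia itself differed between the regions for 17 of the 26 guidance genes (limma, difference of differences), beside 36.2% of 7308 genes; for Plxnd1, Sema4g, Efnb1 and Plxnb1 it did so with control scaling alone. Ntn1 was higher in cortical mixed than in cortical mature oligodendroglia by 5.04 and in the cerebellum by 0.37. Ephb6, an Eph receptor without kinase activity, differed by 3.17 in the cerebellum and −3.07 in the cortex.

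Astrocytes of cerebellum and cortex differed in 9 of 16 guidance genes tested, 5 higher in the cerebellum (12.2% of all genes) and 4 lower (17%); 7 were called without Sema3f and Sema6c. Efnb2, a B-type ephrin, measured 10.63, 10.59 and 10.71 in cerebellar and 4.79, 5.05, 5.98 and 5.99 in cortical astrocytes, with 11.10, 11.00 and 10.94 in Bergmann glia. Both cerebellar astroglial types were thus high and the cortical one under 6, at least 25-fold lower than in cerebellar astrocytes (SE 0.23, adjusted p = 2.6e-35, limma). Sema6d (1.62, 3.08-fold) and Sema4b (1.42, 2.67-fold) were also higher in cerebellar astrocytes. Ephb1, a receptor of B-type ephrins, was at 6.76 in each cerebellar array and 9.82, 9.31, 9.97 and 9.34 in cortical ones, 7.20-fold lower in the cerebellum. Ntn4 (−1.98, at least 2.95-fold), Efnb1 (−1.37, 2.58-fold) and Sema4a (−1.04, not called with quantile normalisation) were lower too. Nrp1 also measured lower without overlap (6.62 against 8.89, −2.27). It was not called, because cortical astrocytes had no excess of it over unbound cortex RNA.

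Bergmann glia and cerebellar astrocytes differed in 5 of 13 guidance genes, 3 higher in Bergmann glia (11.3% of all genes) and 2 lower (5.47%); with quantile normalisation the counts were 2 and 4. Efnb3 was higher by 3.25 (9.14 against 5.89, SE 0.26, adjusted p = 5.7e-19, limma) and Plxnb3 by 1.93 (9.09 against 7.16, SE 0.34, adjusted p = 2.1e-06, limma), without overlap. These are the ephrin and plexin that were highest in mature oligodendrocytes, and myelin markers moved with them: 10 of 10 reached 6 in Bergmann glia with a summed level of 16.44 to 16.55, against 7 of 10 in cerebellar astrocytes (15.33 to 15.45), 6 of 10 in cortical astrocytes (13.95 to 14.28) and 10 of 10 in mature oligodendrocytes (17.28 to 17.59). Their part in the result was not tested. Lower in Bergmann glia were the neuropilin Nrp1 (3.40 against 6.62, at least 1.53-fold) and Sema4b (7.25 against 9.01, 3.38-fold).

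Set against the 7 glial populations, the 17 neuronal ones had 31 guidance genes higher and 11 lower of 59 tested, beside 22.1% and 20.8% of all genes. The median difference was 1.17 over the 59 genes and 0.09 over all genes tested; 28 and 10 were called under both scalings (20.2% and 20.4% of all genes), and 41 in all without Sema3f and Sema6c. The SEs behind these calls come from the spread between arrays of a population and not between populations, and the arrays of both sides overlapped for every gene called, so the 6 with the largest difference in each direction are named. Higher in the neuronal mean were Ntng1 (8.49 against 4.31, at least 4.79-fold), Epha7 (7.99 against 3.88), the A-type ephrins Efna5 (7.99 against 4.41) and Efna3 (7.82 against 4.75), the netrin receptor Unc5d (6.62 against 3.16) and Epha3 (5.47 against 2.43). Lower were Plxnb3 (5.19 against 8.83, at least 4.42-fold), Plxnb1 (3.76 against 7.14), Efnb3 (6.78 against 9.63), Efna2 (6.44 against 8.49), Sema6d (9.05 against 11.08) and Plxnb2 (4.75 against 6.52).

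By family, the Eph receptors had 8 of 10 tested members higher and 1 lower in neurons, 7 and 1 under both scalings. The class 3 semaphorins had 4 of 5 higher and the Slits 3 of 3. Some members of these families reached 6 in few populations: Epha6 in 2, Epha8 in 5 and Epha10 in 6. Epha3, Slit1 and Slit3 did so in 7. For these genes most neuronal populations lay under 6, so the family counts do not show a trait shared by neurons. The plexins divided into 4 higher (the A-type Plxna2 and Plxna4, Plxnc1 and Plxnd1, the last not called with quantile normalisation) and 3 lower, which were the 3 B-type plexins. The semaphorins of classes 4 to 7 divided into 3 higher and 4 lower of 13, and the ephrins into 3 and 2 of 7. Robo1, the 1 Robo receptor tested, was not called.

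**Figure D4:**
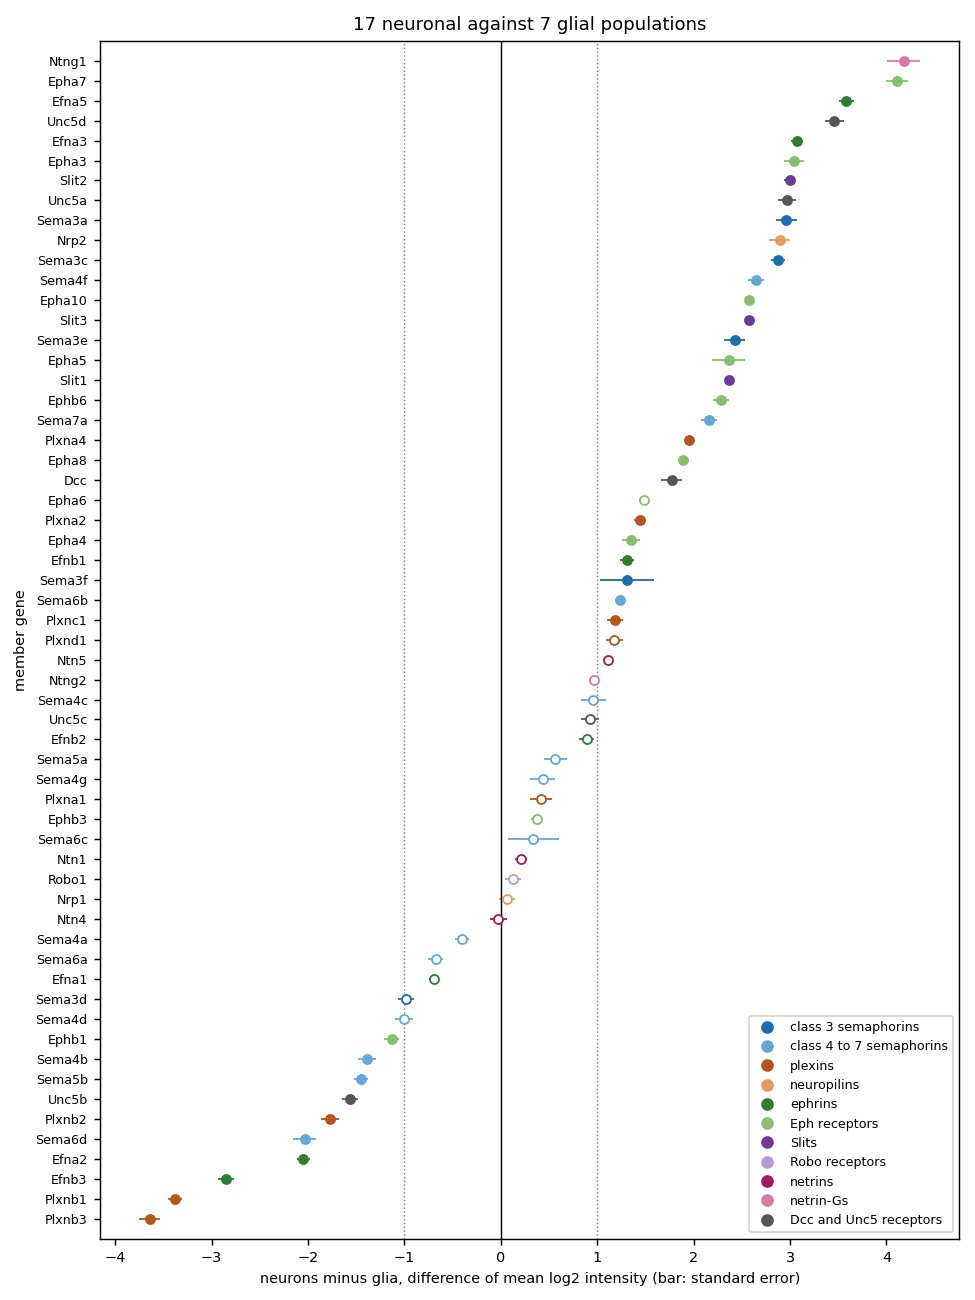
Difference in mean log2 intensity between the 17 neuronal and the 7 glial populations for the 59 guidance genes, with its SE; filled points were called under both scalings and dotted lines mark 2-fold. Ntng1 is at the upper end (4.18) and Plxnb3 at the lower (−3.64).

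In the striatum, Drd1 and Drd2 medium spiny neurons, the projection neurons of the direct and indirect pathways, differed in 4 of 28 guidance genes tested: 3 higher in Drd1 neurons (7.52% of all genes) and 1 lower (0.941%). Sema4g, a membrane-bound semaphorin, measured 6.81 in each Drd1 array and 4.42 in each Drd2 array, a difference of 2.39 (SE 0.42, adjusted p = 3.6e-06, limma), at least 1.76-fold. Efna3 measured 9.07 in each Drd1 array and 7.91, 7.49 and 7.48 in Drd2 arrays, 2.73-fold higher (1.45, SE 0.18, adjusted p = 3.1e-10, limma). Both separated the populations without overlap.

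Sema3a, a secreted repellent ligand of Nrp1, measured 8.91, 8.60 and 8.32 in Drd1 and 6.83, 8.25 and 6.14 in Drd2 arrays, so that the highest Drd2 array came close to the lowest Drd1 array (1.54, SE 0.34, adjusted p = 0.00033, limma); with quantile normalisation Sema3a did not meet the conditions for a test. Unc5d measured 5.38 in each Drd1 array and 7.37, 7.89 and 7.29 in Drd2 arrays, at least 2.86-fold lower in Drd1 neurons (−2.13, SE 0.32, adjusted p = 6.5e-08, limma). The all-gene median was shifted by 0.37 towards Drd1 neurons with control scaling and by −0.03 with quantile normalisation, under which 2 genes were higher and 3 lower. Without any scaling between groups no guidance gene was called (limma; 8 tested, 2 with an unadjusted p under 0.05), while 3 of the 4 calls were made under both control scaling and quantile normalisation. Without Drd2 replicate 3 there were 6.

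Compared with the deep-layer neurons of the cortex, medium spiny neurons had 4 guidance genes higher (12.5% of all genes) and 32 lower (26.6%) of 56 tested; 4 and 28 were called under both scalings (11.1% and 17.2% of all genes) and 34 without Sema3f and Sema6c. The median difference was −1.58 for the guidance genes and −0.23 for all genes. Nrp2, the co-receptor of Sema3c and Sema3f, was at 3.50 in medium spiny and 8.95 in deep-layer neurons, at least 7.71-fold lower (−5.45, SE 0.22). Its ligand Sema3c (5.32 against 9.13, at least 8.76-fold), Epha3 (3.99 against 8.49, at least 5.60-fold), the netrin Ntn5 (3.35 against 7.65, at least 3.13-fold), Slit1 (4.09 against 8.31, at least 4.96-fold) and Ephb3 (3.90 against 7.89, at least 3.70-fold) were lower too. Without overlap, Epha8 (6.34 against 2.67, at least 1.27-fold), Plxnb2 (7.99 against 6.77, 2.33-fold) and Ephb1 (9.89 against 8.73, 2.23-fold) were higher in medium spiny neurons. The last of the 4, Dcc, measured 8.87 to 9.61 in medium spiny and 6.71 to 9.11 in deep-layer arrays, which overlapped (1.31, SE 0.23). All 10 semaphorins of classes 4 to 7, both neuropilins, all 3 Slits and both netrins called here were lower in medium spiny neurons; Sema5a and Slit3 were not called with quantile normalisation, which leaves 9 of these semaphorins and 2 Slits. Microglial markers moved with the deep-layer side, at a summed level of 11.54 to 15.86 against 9.56 to 9.82. Without layer 5a neurons, which had most of them, 37 genes were called. Layer 5b and layer 6 neurons also held such markers, and their part in the result was not tested.

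Layer 5b neurons, which project to the brainstem and cord, and layer 6 neurons, which project to the thalamus, differed in 5 of 52 guidance genes, 1 higher in layer 5b (10.2% of all genes) and 4 lower (5.17%). Dcc was at 7.35, 7.12 and 7.38 in layer 5b and 8.81, 9.11 and 9.11 in layer 6 neurons, 3.31-fold lower in layer 5b (SE 0.35, adjusted p = 5.1e-05, limma). Sema3d was at 5.37, 5.67 and 5.15 against 7.08, 7.16 and 7.16 (at least 2.20-fold) and Epha3 at 8.20, 7.82 and 8.10 against 9.12, 9.24 and 9.37 (2.31-fold). These 3 genes separated the layers under both scalings. Unc5b, which shares netrin as ligand with Dcc, went the other way, with 6.64, 7.05 and 6.64 in layer 5b against 4.27, 4.46 and 4.62 in layer 6, but it did not meet the conditions for a test with quantile normalisation, and neither did Efna2 (−1.39). The count rose to 10 without layer 6 replicate 1 and was 0 higher and 10 lower with quantile normalisation. In layer 5b the vessel markers summed to 10.71 to 11.68, in layer 6 to 7.91 to 8.70.

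Cort+ and Pnoc+ neurons, both mostly inhibitory, had 47 of 55 guidance genes lower than deep-layer neurons and 2 higher. Here the whole array was shifted: 68.2% of all genes were called lower and 1.68% higher, with a median of −1.43 (−1.98 for the guidance genes). With quantile normalisation the all-gene median was −0.14 and the guidance genes were 6 higher and 18 lower. Under both scalings 18 were lower, beside 16.8% of all genes, and 2 higher, beside 1.57%. The 18 held Ntn5 (2.23 against 7.65), Sema4c (2.98 against 7.61), Slit3 (4.05 against 7.79), Plxnb2 (3.04 against 6.77), Ephb3 (4.19 against 7.89) and Epha4 (8.34 against 11.72), whose arrays did not overlap. Much of the count rested on Pnoc+ neurons: without them 23 genes were called. Pnoc+ and Cort+ neurons were far apart in Sema3f (4.95, 4.76 and 4.95 against 13.05 in each Cort+ array) and Sema6c (5.06 in each against 11.22, 10.98 and 10.90). These are the genes whose levels differed between lines within a tissue, and the 2 populations came from different lines. Without Sema3f and Sema6c 47 were called. The 2 higher were Sema6c and Ntng2, whose mean of 4.63 came from Cort+ neurons alone (2.26 in each Pnoc+ array). This comparison shares the deep-layer arrays with that of medium spiny neurons.

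The cholinergic neurons, marked by 1 line, were divided by guidance genes between the brainstem and cord on one side and the basal forebrain and striatum on the other. Of 23 guidance genes tested, 10 were higher in brainstem motor and spinal cholinergic neurons (14% of all genes) and 5 lower (24%), and all 15 were called under both scalings (13.9% of all genes higher and 18.1% lower). Sema3a measured 8.87, 8.28 and 8.12 in brainstem motor neurons and 9.0, 9.66 and 8.60 in spinal neurons, against 2.71, 2.72 and 2.69 in striatal and 2.13 in each basal forebrain array. The caudal arrays were all above 8 and the rostral ones near the floor, a difference of 6.34 (SE 0.24, adjusted p = 2.6e-40, limma), at least 6.75-fold. Both neuropilins were also higher caudally. Nrp1 measured 8.94 in each brainstem array and 8.28, 8.70 and 8.25 in spinal arrays, against 4.16 in each striatal array and 6.33, 6.33 and 6.14 in the basal forebrain (at least 5.83-fold). Nrp2 measured 8.62, 8.69 and 8.58 in brainstem and 8.78, 9.10 and 8.78 in spinal arrays, 2.57 in each striatal and 7.47 in each basal forebrain array. The rostral populations thus differed from each other in Nrp2 more than the basal forebrain differed from the caudal ones.

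The Slits, secreted ligands of Robo receptors, went in opposite directions. Slit2 was at 10.37, 10.12 and 10.19 in brainstem and 10.37, 9.95 and 10.12 in spinal neurons, and at 6.55, 6.55 and 6.35 in striatal and 7.03, 6.88 and 6.69 in basal forebrain neurons, 11.4-fold higher caudally (3.51, SE 0.13, adjusted p = 1.3e-40, limma). Slit3 was at 6.92, 7.62 and 7.52 in brainstem and 6.55 in each spinal array, and at 3.47 and 2.14 in the rostral ones (at least 1.93-fold). Slit1 was lower caudally: 4.44, 4.31 and 4.44 in brainstem and 3.06, 3.30 and 3.09 in spinal neurons, against 8.16, 8.16 and 8.21 in striatal and 7.49, 7.57 and 7.12 in basal forebrain neurons (at least 3.45-fold lower, SE 0.09, adjusted p = 2.2e-58, limma). No Slit overlapped between the sides.

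Sema7a (6.33-fold), Ephb6 (at least 2.56-fold) and Sema6a (at least 2.29-fold) were also higher caudally without overlap, as were Sema3c (3.07-fold) and Ntng1 (2.14-fold). Epha5 (6.18-fold), Ntn4 (4.81-fold) and Sema6b (at least 1.34-fold) were lower without overlap, and Sema4g was lower with overlap (2.74-fold). Epha5 varied within the spinal group, at 7.48, 9.08 and 7.21. Astrocyte markers moved with the caudal side, at a summed level of 13.78 to 14.96 against 10.88 to 11.98, and their part in the result was not tested; the tissues of both sides also differ, which cannot be told apart from the cell types.

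**Figure D5:**
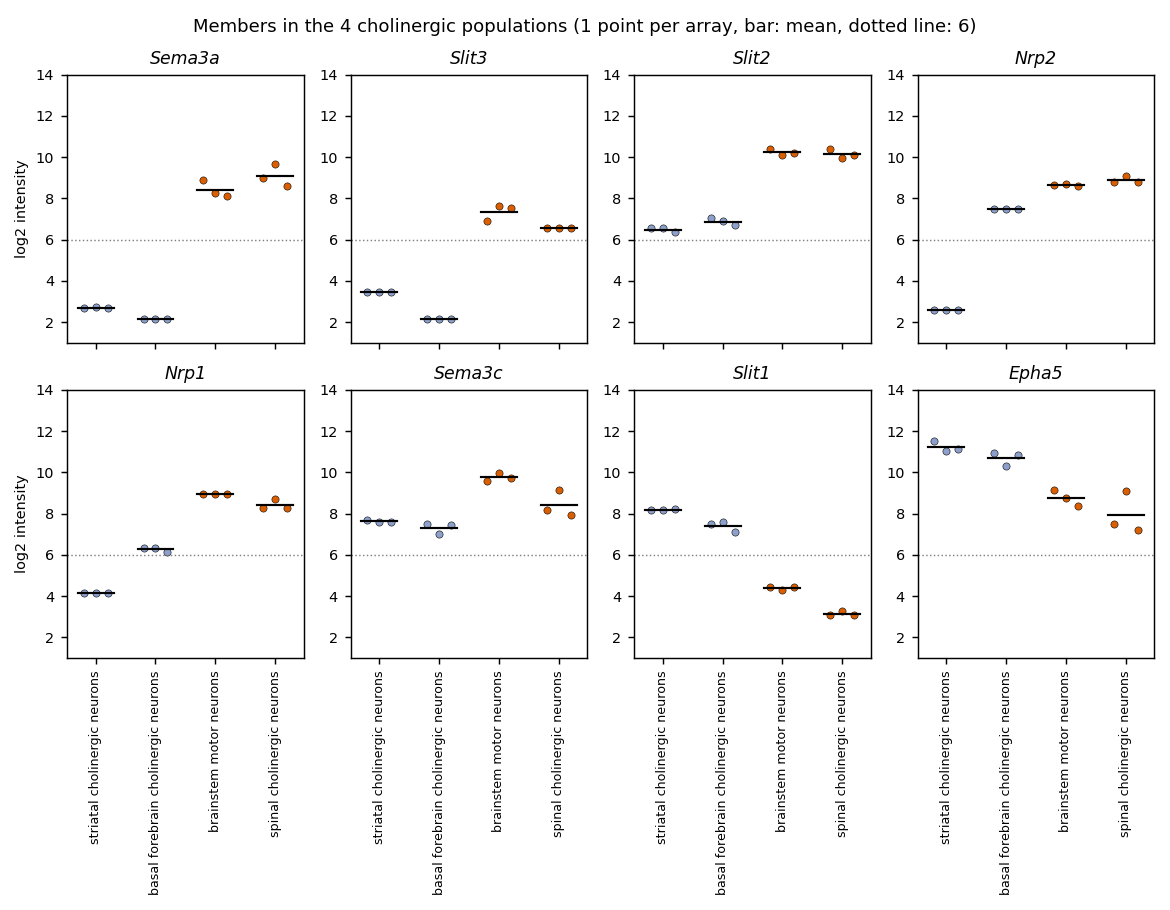
Log2 intensity of 8 guidance genes in each array of the 4 cholinergic populations, with 1 point per array, a bar at the mean and a dotted line at 6. Sema3a, Slit2 and Slit3 are higher in brainstem and spinal arrays than in all basal forebrain and striatal arrays, and Slit1 and Epha5 lower.

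In the cerebellum, Purkinje neurons were compared with the stellate and basket neurons that inhibit them. Of 20 guidance genes tested, 6 were higher in Purkinje neurons (27.2% of all genes) and 9 lower (23.6%), all 15 under both scalings (24.8% and 19.6% of all genes), and 14 without Sema6c. Among the secreted ligands, Ntn4, a netrin related to laminins, was at 2.19 to 2.42 over the 6 Purkinje arrays (median 2.42) and at 10.88, 10.88 and 10.91 in stellate and basket neurons, at least 29.7-fold lower (SE 0.24, adjusted p = 1.5e-50, limma). Sema3e was at 2.32 to 2.85 (median 2.32) against 10.60, 10.60 and 10.53 (at least 23.9-fold), and Ntn1 at 2.11 in each Purkinje array against 9.87, 9.05 and 9.29 (at least 10.6-fold). All Purkinje arrays were near the floor for these 3 ligands.

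Sema4a (3.40 against 10.61, at least 24.4-fold), Plxnc1 (6.75 against 12.13, 41.7-fold, SE 0.23, adjusted p = 3.9e-37, limma) and Nrp2 (2.11 against 6.92, at least 1.90-fold) were also lower in Purkinje neurons, without overlap. Sema3a went the other way, at 7.75 to 8.46 in Purkinje arrays (median 8.27) and 2.28 in each stellate and basket array, at least 4.53-fold higher (5.90, SE 0.30). Unc5d (7.76 against 2.26, at least 3.39-fold), Epha5 (6.67 against 2.04, at least 1.59-fold), Sema7a (11.70 against 10.02, 3.21-fold) and Epha7 (8.69 against 7.60, 2.14-fold) were higher in Purkinje neurons too. Ligand and receptor of the Sema7a and Plxnc1 pair thus lay on opposite sides. Myelin markers moved with stellate and basket neurons, with 10 of 10 at 6 or more and a summed level of 14.92 to 15.39 against 4 of 10 and 11.22 to 11.68 in Purkinje neurons, as did progenitor markers (5 of 7 against 1 of 7), and their part was not tested.

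Granule neurons, the small excitatory neurons of the cerebellum, had 3 guidance genes higher (17.5% of all genes) and 15 lower (27.2%) than the mean of the 4 other cerebellar neuron types, of 26 tested; with quantile normalisation the counts were 8 and 16, and 17 were called without Sema3f and Sema6c. Among the ephrins, Efna5 measured 2.41 in each granule array and 7.18 to 10.09 over the others (at least 5.28-fold), and Efna3 2.36 in each against 4.50 to 8.98 (at least 2.31-fold). Efnb2 was at 2.02 in each granule array, but also at 2.11 to 2.65 in Purkinje neurons, against 7.94 to 9.16 in the other 3 types. The receptors Epha4 (2.02 against 6.12, at least 1.09-fold) and Plxnc1 (6.39 against 10.04, 12.6-fold, SE 0.21) were lower, with granule arrays below all others, and Unc5d (2.02 against 5.19) was at the floor. Sema7a (10.83 against 9.17), Sema6c (11.45 against 9.36) and Efna2 (7.35 against 6.14) were higher, each within the range of the other types, and Efna2 was not called with quantile normalisation.

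Compared with the unbound RNA of its own tissue, a population shows which guidance genes its ribosomes hold more of than the surrounding tissue. Over the 24 populations there were 1077 tests of guidance genes, of which 235 were higher in TRAP (18.4% of all genes' tests) and 505 lower (32.4%); 165 and 325 were called under both scalings (13.9% and 19.2%), and 712 in all without Sema3f and Sema6c. Unbound RNA was pooled over the lines of a tissue, so populations of 1 tissue share these arrays. Layer 6 neurons had 39 of 53 guidance genes higher, beside 30.8% of all genes, and 20 under both scalings, beside 13.6%. Layer 5a neurons had 36 of 53 higher (60.7% of all genes) and layer 5b neurons 31 of 53 (36.7%), of which 13 and 11 were called under both scalings (20.2% and 16.1%). In these 3 layers 0 guidance genes were lower, beside 2.31% of all genes in layer 5a, 4.93% in layer 5b and 4.52% in layer 6 (limma; with an unadjusted p under 0.05, 2 in layer 5b and 0 in the other layers), while with quantile normalisation 8 were lower in layer 5a and 4 in layer 5b. Most were lower in Purkinje neurons (31 of 42, beside 49.2% of all genes) and in Pnoc+ neurons (35 of 43, beside 58.1%). In Golgi neurons 31 of 43 were lower, or 72.1%, near the 70.4% of all genes. Most were also lower in other populations. Among them were basal forebrain cholinergic neurons (35 of 44, beside 4207 of all 10152 genes) and cerebellar mature oligodendrocytes (31 of 42, beside 5441 of 10219).

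The genes with the 2 largest log2 gains over unbound RNA are named per population; where the unbound mean was under 6 this order rests on values near the floor. In cortical mature oligodendrocytes Efnb3 was 46.4-fold above unbound cortex (12.34 against 6.81, SE 0.21) and Efna1 at least 1.47-fold (6.55 against 2.22), and in cerebellar ones Efnb3 was 15-fold and Plxnb3 9.11-fold above unbound cerebellum. In mixed oligodendroglia the leading gains were Sema5b (at least 2.49-fold) and Sema3d (4.10, at least 11.4-fold) in the cerebellum and Sema3d (4.92, at least 9.5-fold) and Efnb3 (3.90, 14.9-fold) in the cortex. Cortical astrocytes led with Plxnb1 (3.93, at least 9.78-fold) and Plxnb2 (3.87, at least 2.83-fold), cerebellar astrocytes with Sema4b (2.82, 7.05-fold) and Efnb2 (2.10, 4.28-fold), and Bergmann glia with Efnb2 (2.47, 5.53-fold) and Plxnb1 (2.16, 4.46-fold). Each glial type thus had a B-type plexin, a B-type ephrin or both among these 2 genes, with the exception of the cerebellar mixed oligodendroglia. Some neuronal populations named below had one too: Plxnb2 in both medium spiny populations and layer 5a neurons, and Efnb3 in Pnoc+ neurons.

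Among neurons, Slit3 was one of the 2 named in all 3 deep-layer populations, at least 3.86-fold above unbound cortex in layer 5a, 3.34-fold in layer 5b and 3.19-fold in layer 6 neurons, with an unbound mean of 3.37, and also in brainstem motor neurons (at least 2.55-fold). The other gene was Plxnb2 in layer 5a (3.39), Epha6 in layer 5b (3.51) and layer 6 (3.64), and Sema6c in brainstem motor neurons (2.65). In these layers Plxnb2 and Epha6 did not meet the conditions for a test with quantile normalisation. Both medium spiny populations had Plxnb2 (at least 3.69-fold in Drd1 and 4.28-fold in Drd2 neurons) and Sema4c (at least 2.17-fold and 1.41-fold), the same pair against shared unbound arrays. Striatal cholinergic neurons gained Slit1 (3.62, at least 4.52-fold) and Epha5 (3.17, 9.0-fold), basal forebrain neurons Ntn4 alone (1.55, 2.92-fold) and spinal neurons Sema4f alone (1.06, 2.09-fold). In the cerebellum these genes were Nrp2 (at least 3.35-fold) and Ntng1 (3.58, 11.9-fold) in unipolar brush neurons, Nrp2 (at least 1.90-fold) and Efna3 (at least 4.78-fold) in stellate and basket neurons, Efna3 (3.10, at least 7.39-fold) and Sema6c (2.64) in Purkinje neurons, Sema6c (1.69) and Efna5 (1.62, 3.07-fold) in Golgi neurons and Sema6c alone (3.09) in granule neurons. Cort+ neurons gained Ntng2 (4.96, at least 2.02-fold) and Sema6c (6.17), Pnoc+ neurons Sema5b (at least 1.66-fold) and Efnb3 (3.31-fold), and Cck+ neurons Sema6c (6.55) and Sema3f (3.68). In cortex and cerebellum the gains of Sema6c and Sema3f are against unbound RNA pooled over lines, between which their levels differed. The unbound cortex array of the Cck line had Sema6c at 8.34 and Sema3f at 11.74, against pooled means of 4.87 and 9.20. The part of the line in these gains was not tested. Sema5a was tested in all 24 populations and was higher than unbound RNA in 0 of them (limma; 1 with an unadjusted p under 0.05) and lower in 17.

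Known ligand and receptor pairs were counted by the populations in which each side reached 6, as a description. Sema7a and Plxnc1 were both present in 23 of 24 populations, Efnb2 and Ephb1 in 17, Efnb3 and Epha4 in 15 and Efna5 and Epha5 in 14. Slit2 and Robo1 were together in 11, with Slit2 alone in 2 and Robo1 alone in 4, and Sema3a and Nrp1 in 10, with 3 and 6 alone. Sema3e reached 6 in every population that had its receptor Plxnd1 (8) and in 8 more. Sema4d was without Plxnb1 in 12 populations and with it in 8, and Sema6a without Plxna4 in 9 and with it in 7, while Sema3c and Nrp2 were together in 8. Ntn1 met Dcc in 1 population, was without it in 1, and Dcc was without Ntn1 in 10; with Unc5b it was present in 2, and Unc5b was alone in 8.

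Other genes of the pathway were followed in a list of 34 partner receptors, further ligands and adhesion molecules. A list of 50 genes on the array, called effectors here, was also followed. It holds Plxdc1, a membrane protein, beside intracellular effectors. The counts of both lists are to be read against the share of all genes called. Between neurons and glia (22.1% of all genes higher and 20.8% lower), 13 of 29 partners tested were higher in neurons and 5 lower, among them the adhesion molecule L1cam (10.72 against 7.08) and Met (4.51 against 2.40), and, lower, the Wnt receptor Ryk (5.05 against 9.01) and Rgma, a ligand of neogenin (−2.68). Of 47 effectors, 16 were higher and 9 lower, with the collapsin response mediator Crmp1 (10.96 against 7.62) and Plxdc1 (4.19) at one end and the Rac activator Dock1 (−4.54) and the kinase Rock1 (−2.90) at the other. In glia, astroglia (39.9% and 13.9%) had 6 of 12 partners higher and 3 lower than mature oligodendrocytes (Sdc3 3.94 and Vangl2 2.98; Cntn2 −6.12 and the Nogo receptor Rtn4r −2.80) and 11 of 27 effectors higher and 6 lower. Mixed oligodendroglia (36.2% and 6.94%) had 9 of 16 partners higher and 3 lower than mature ones (Sdc3 4.3 and Vangl2 3.76; Rtn4r −3.95 and Cntn2 −1.92) and 12 of 29 effectors higher and 3 lower (Dpysl3 4.38 and Mical1 3.54; Kalrn −2.73).

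The neuronal comparisons gave these counts for the same lists. Medium spiny against deep-layer neurons (12.5% of all genes higher and 26.6% lower) had 1 of 27 partners higher (Celsr3 2.70) and 18 lower (Met −5.79 and Rtn4r −5.18), and 3 of 46 effectors higher and 11 lower. Purkinje neurons (27.2% and 23.6%) had 9 of 9 partners lower than stellate and basket neurons (Flrt2 −8.68 and Dscaml1 −8.28), but 9 of 19 effectors higher and 2 lower (Kalrn 7.12 and Plxdc1 5.87). Brainstem and spinal against rostral cholinergic neurons (14% and 24%) had 2 of 9 partners higher and 1 lower, and 7 of 29 effectors higher and 9 lower, with Plxdc1 (7.87) and Mical1 (3.71), which acts on actin downstream of plexins, higher and Chn2 (−4.66) and Dpysl4 (−3.32) lower. Granule neurons (17.5% and 27.2%) had 1 of 10 partners higher and 3 lower, and 3 of 25 effectors higher and 14 lower. Layer 5b against layer 6 neurons (10.2% and 5.17%) gave 1 higher and 2 lower of 25 partners and 4 and 2 of 41 effectors, and Drd1 against Drd2 neurons (7.52% and 0.941%) 1 higher of 13 partners and 1 lower of 34 effectors. Cort+ and Pnoc+ neurons had 19 of 27 partners and 39 of 45 effectors lower than deep-layer neurons, beside 68.2% of all genes. Among astrocytes, the cerebellum (12.2% and 17%) had 2 of 9 partners higher than the cortex and 1 of 21 effectors higher and 5 lower, and Bergmann glia (11.3% and 5.47%) had 4 of 14 effectors higher than cerebellar astrocytes and 0 of 9 partners called (limma; 2 with an unadjusted p under 0.05). Counts of 1 direction mean that no other gene of the list was called.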

How the data were processed

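The deposited values are intensities from Affymetrix arrays. The authors normalised them with GCRMA within groups, per the submitters' processing notes and the series text; the version was not given in the sources used here. They hold 45101 probe sets, of which 34945 name 1 gene. Intensities were set to at least 1 and log2-transformed, and each group was shifted so that the mean of 18 spiked control probe sets was equal, the scaling the series text recommends. Quantile normalisation between arrays was the main alternative.

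Comparisons used the limma package, version 3.58.1 (under R, version 4.3.3; files read with the data.table package, version 1.17.8), fitted on all arrays, with 1 term per population and per tissue of unbound RNA, trended variance, and Benjamini-Hochberg adjustment over all genes tested. Calls needed an adjusted p under 0.05, a 2-fold change and a higher level in TRAP than in unbound RNA; genes needed a group mean log2 of 6. Unbound RNA was pooled per tissue, and corpus striatum was taken as striatum. The code was tested on simulated data.

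The named genes are all members by family, up to 6 called genes per direction and comparison with the largest difference and no overlap of arrays, 2 gains per population, the 12 members with the largest span, and 2 genes per direction of each pathway list. Members and lists were chosen with earlier results of these data known. Nothing shows that arrays are from separate animals beyond the labels, so p-values measure the spread between these arrays. Replicates were normalised together and share identical values, so this spread, and the SEs and p-values with it, can be smaller than between separate preparations. How much smaller was not tested. Same-numbered arrays of TRAP and unbound RNA correlated with each other above 0.1 in every pair only for brainstem motor neurons (0.62, 0.59 and 0.50) and basal forebrain neurons (0.46, 0.32 and 0.50). Promoter sequences are from RefSeq, GRCm38.p6.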

Additional observations from a re-analysis of the deposited data

Results flagged for a closer look

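In 155 sets of arrays (a gene in a group of 4 to 10 arrays), 20 had an array farther from the others than Dixon's criterion allows. For independent values of 1 group, chance gives about 1 in 20. Replicates here share identical values and unbound arrays are pooled over lines, so the count cannot be read as above chance. In Purkinje neurons, Epha4 had 1 low array (6.45, nearest 7.22), as did Epha7 (8.01, nearest 8.79), and Plxnc1 (7.45, nearest 6.71) and Epha8 (6.42, nearest 6.41) had 1 high array. In unbound cortex RNA, Dcc had 1 array at 10 (nearest 8.33) and Sema6d 1 at 10.01 (nearest 9.15). Single low arrays there were found for Efna3 (6.02), Nrp2 (5.80), Sema4a (8.75), Sema4d (5.24) and Sema6a (5.95). In unbound striatum RNA, 1 array of Unc5d was low (6.02, nearest 7.41). In unbound cerebellum RNA, Sema3f had 1 array at 7.96 (nearest 10.99), which was the only one there from the mature oligodendrocyte line, and Efna5 (7.54), Efnb1 (6.99) and Sema4b (5.28) also had 1 low array. Efnb3 (8.63), Ntn4 (10.73), Unc5a (6.63) and Unc5b (9.67) had 1 high array there.

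The difference between mixed and mature oligodendroglia was not the same in cerebellum and cortex for 17 genes, by limma's test of the difference of differences. It was larger in the cerebellum for Ephb6 (6.24), Sema6c (4.46), Sema3d (3.22), Sema5b (2.97), Sema4d (2.34), Efna1 (1.93), Efna3 (1.89), Sema6a (1.71), Sema4b (1.36) and Sema7a (1.10). It was larger in the cortex, with cerebellum minus cortex below 0, for Ntn1 (−4.68), Plxnd1 (−2.33), Sema4g (−1.66), Unc5c (−1.60), Efnb1 (−1.58), Ntn4 (−1.58) and Plxnb1 (−1.32). "Larger" here refers to the signed difference.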

How the results depend on the processing

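Counts of called guidance genes were recomputed under each alternative. With quantile normalisation they were 10 for layer 5b against layer 6 (5 with control scaling). For Cort+ and Pnoc+ against deep-layer neurons they were 24 (49 with control scaling). Leaving out Pnoc+ neurons, an alternative chosen after seeing the data, gave 23 with control scaling. With Pnoc+ neurons kept, quantile normalisation turned the sign of 9 of the genes called with control scaling in this comparison. These were Dcc 0.07, Ephb1 0.15, Ntn4 0.28, Plxnc1 0.14, Robo1 0.33, Sema4b 0.48, Sema4g 0.44, Sema6a 0.47 and Unc5c 0.08. Efnb1 (1.46), Efnb3 (1.30) and Sema3c (1.18), below 0 and not called with control scaling, were called higher; leaving out Pnoc+ turned Efna3 (0.00), Epha10 (0.04) and Sema3f (2.63). With no scaling between groups Drd1 against Drd2 gave 0 (limma; 2 of 8 with an unadjusted p under 0.05). With no expression minimum Drd1 against Drd2 gave 7, layer 5b against layer 6 8 and Bergmann glia against astrocytes 10. With a minimum of 8 these were 2 for Drd1 against Drd2, 2 for the layers, 11 for mixed against mature oligodendroglia, and 447 for TRAP against unbound RNA (140 in the 8 populations with numbered preparations). With the probe sets of each gene averaged, they were 2 for Drd1 against Drd2, 20 for medium spiny against deep-layer neurons, 1 for the layers, 30 for Cort+ and Pnoc+, 6 for Purkinje, 9 for granule, 6 for mixed against mature, 2 for astrocytes of both regions, 2 for Bergmann glia and 382 (115 in the 8 populations) for TRAP against unbound RNA, and Sema4d in astroglia turned to −1.04. Without the requirement on unbound RNA they were 25 for cholinergic, 26 for Purkinje and 33 for granule neurons, 36 for astroglia against mature oligodendrocytes, 29 for mixed against mature and 16 for the astrocytes. The cause of these shifts was not tested.

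Leaving out 1 array at a time gave 41 to 43 for neurons against glia, 4 to 6 for Drd1 against Drd2 (6 without Drd2 replicate 3), 35 to 38 for medium spiny neurons, 5 to 10 for the layers (10 without layer 6 replicate 1), 48 to 49 for Cort+ and Pnoc+, 15 to 16 for cholinergic, 14 to 16 for Purkinje and 16 to 19 for granule neurons, 20 to 23 for astroglia, 16 to 18 for mixed oligodendroglia, 8 to 9 for astrocytes, 5 for Bergmann glia, and 735 to 742 (227 to 231 in the 8 populations) for TRAP against unbound RNA. With the replicate number as a block the counts were 42, 3, 36, 6, 49, 16, 14, 18, 22, 17, 8 and 5 in the same order, and 219 with and 219 without the block for these 8 populations, set against unbound RNA of their own line. For the 2 populations whose numbers paired, the block gave 23 and 35. Across populations same-numbered arrays had a median correlation of 0.009, against −0.004 for other numbers.

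Values near the floor of the arrays limit the folds to lower bounds, and 3 arrays per group limit the precision of each mean.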
